A study of Mus musculus with 15 samples.

Results

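The 9 genes described here, Grm6, Trpm1, Nyx, Gng13, Pcp2, Cabp5, Vsx1, Bhlhe23 and Sebox, form one set because each is known as a gene of retinal bipolar cells. They were found by symbol among the 20418 gene symbols of the deposited tables, and where a symbol had several transcripts the one with the most reads was used. All 9 were present in every library. Bipolar cells are the interneurons that carry signals from photoreceptors to ganglion cells, and in the mouse most of them are born after birth, among the last neurons of the retina. In ON bipolar cells the glutamate receptor mGluR6 (Grm6), held at the dendrite tip with nyctalopin (Nyx), acts through a Go protein to close the cation channel TRPM1 in darkness, and light releases that block. Mutations in GRM6, TRPM1 and NYX cause congenital stationary night blindness in people.

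The study compared eyes of mice with and without Egr1, an immediate early transcription factor gene, in relation to eyelid development. Whole eyes with their eyelids were the source of RNA, so retina was one tissue among lens, cornea, skin and muscle. The Egr1 mutation, of C57BL/6 origin, was crossed back to BALB/c over 5 generations and, in a second round, over 4, and every library carries the strain label BALB/c, wild type included. There were 15 libraries: newborn wild type (2), newborn labelled Egr1-/- (2), adult wild type (1), adult labelled Egr1-/- (2), and both eyes of 4 mice at day 3. Of the day 3 mice, 3 were labelled Egr1-/- (E24, E29 and E32) and 1 was an Egr1+/- control (E28), with the eyelids open in 4 eyes of the labelled knockouts (both eyes of E32) and closed in the other 2 and in both eyes of E28. The labels name no animal, sex or litter for the newborn and adult libraries, and give no age in days for the adults. Their p-values therefore measure the spread between these libraries, which may be technical. In the tests below the eyes of a mouse were summed or fitted with mouse as a term.

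Libraries held 20334849 to 43907093 reads over transcripts. Levels are given as CPM, reads scaled to one common library total after TMM adjustment, and 3 reads, the lowest count read as a level, corresponded to 0.0999 to 0.145 CPM. Egr1 RNA itself was higher, not lower, in the libraries labelled knockout. It stood at 47.0 and 60.8 CPM in newborn wild type and at 214.2 and 273.1 CPM in the newborn libraries labelled knockout, and at 33.2 CPM in the adult wild type library against 255.2 and 184.6 CPM in the adult labelled knockouts. At day 3 Egr1 was at 98.95 and 110.1 CPM in the Egr1+/- eyes and at 156.3 to 365.9 CPM in the labelled-knockout eyes. The cause of the higher level was not tested. The genotype is therefore written as labelled throughout, and every direction between genotypes rests on those labels. Some libraries stood apart in tissue make-up. Summed over 12 lens genes, newborn labelled knockout replicate 1 had 838.7 CPM, against 76780 CPM in replicate 2 and 85290 and 89870 CPM in newborn wild type. At day 3 the left eye (OS) of E32 had 50.3 CPM over 13 rod genes, against 333.3 to 1182 CPM in the other 7 eyes. In bulk tissue, fewer bipolar cells and less RNA per bipolar cell cannot be told apart.

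The 4 start-site windows below are printed because the results turn on these genes: Trpm1, the member that did not follow the others with age, has a start site for each of its 2 transcripts in the tables, and Cabp5 and Grm6 are 2 of the members that did rise. The windows run from 250 bases before to 50 bases after a RefSeq start on mouse assembly GRCm38.p6, all on the plus strand. Capitals mark TAATCC or its reverse complement GGATTA, the core of the sites bound by the OTX2 and CRX homeodomain proteins of bipolar cells and photoreceptors, and CATGTG or its reverse complement CACATG, an E-box of the kind bound by MITF, the melanocyte factor known to act on Trpm1. The windows lie at chr7:64153585-64153884 for the longer Trpm1 transcript, chr7:64185209-64185508 for the shorter one, chr7:13397905-13398204 for Cabp5 and chr11:50850435-50850734 for Grm6.
Trpm1, longer transcript: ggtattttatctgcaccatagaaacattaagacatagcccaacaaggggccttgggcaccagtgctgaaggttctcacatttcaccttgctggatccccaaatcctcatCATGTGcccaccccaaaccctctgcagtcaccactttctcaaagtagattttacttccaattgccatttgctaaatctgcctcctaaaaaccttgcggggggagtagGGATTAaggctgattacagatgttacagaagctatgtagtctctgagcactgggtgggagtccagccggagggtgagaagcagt
Trpm1, shorter transcript: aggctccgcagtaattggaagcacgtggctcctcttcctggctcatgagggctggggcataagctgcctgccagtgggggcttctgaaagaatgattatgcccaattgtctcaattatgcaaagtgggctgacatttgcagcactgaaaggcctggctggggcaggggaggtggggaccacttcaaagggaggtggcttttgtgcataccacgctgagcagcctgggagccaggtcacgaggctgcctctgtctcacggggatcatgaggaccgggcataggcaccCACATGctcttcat
Cabp5: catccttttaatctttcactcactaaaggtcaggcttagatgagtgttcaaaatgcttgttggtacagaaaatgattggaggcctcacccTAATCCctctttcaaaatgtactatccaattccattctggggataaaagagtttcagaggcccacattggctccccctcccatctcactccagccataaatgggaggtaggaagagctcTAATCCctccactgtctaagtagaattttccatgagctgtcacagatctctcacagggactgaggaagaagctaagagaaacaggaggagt
Grm6: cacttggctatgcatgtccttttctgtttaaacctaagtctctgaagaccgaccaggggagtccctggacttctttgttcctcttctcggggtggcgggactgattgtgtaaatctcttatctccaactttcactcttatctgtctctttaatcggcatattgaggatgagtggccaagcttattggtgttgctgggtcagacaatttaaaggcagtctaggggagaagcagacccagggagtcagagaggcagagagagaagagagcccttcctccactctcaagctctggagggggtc

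The window of the longer Trpm1 transcript held GGATTA 34 bases before the start and CATGTG 141 bases before it. That of the shorter transcript held CACATG 36 bases after the start and no TAATCC on either strand. Cabp5 held TAATCC at 160 and 41 bases before its start, and Grm6 held neither motif. Searched on both strands, TAATCC was found in 2 of the 14 windows of the 9 members and in 7.06% of 32851 mouse windows of the same length, and CATGTG in 3 of the 14 windows, both of Trpm1 and 1 of Pcp2, and in 14.2% of all. These matches describe letters only, and no binding was measured. Other E-box forms were not searched or marked, and the letters cacgtg also stand in the window of the shorter Trpm1 transcript.

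In adult eyes all 9 members were well above the counting floor, and most were low or near it in newborn and day 3 eyes. Levels between genes are compared per transcript length, in the authors' RPKM (read counts scaled by transcript length and library total). In the 3 adult libraries the mean was 124.4 ± 25.6 RPKM (SD, n = 3) for Pcp2, 66.2 ± 7.05 for Trpm1, 47.7 ± 12.6 for Gng13, 33.9 ± 4.05 for Cabp5, 20.0 ± 1.93 for Sebox, 14.9 ± 4.09 for Grm6, 8.74 ± 0.741 for Bhlhe23, 5.91 ± 1.40 for Nyx and 3.95 ± 1.09 for Vsx1. Neighbours in this order overlapped between libraries for Trpm1 and Gng13, Sebox and Grm6, and Nyx and Vsx1, and for no other neighbours. Pcp2 was above all other members in every adult library.

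**Figure D1:**
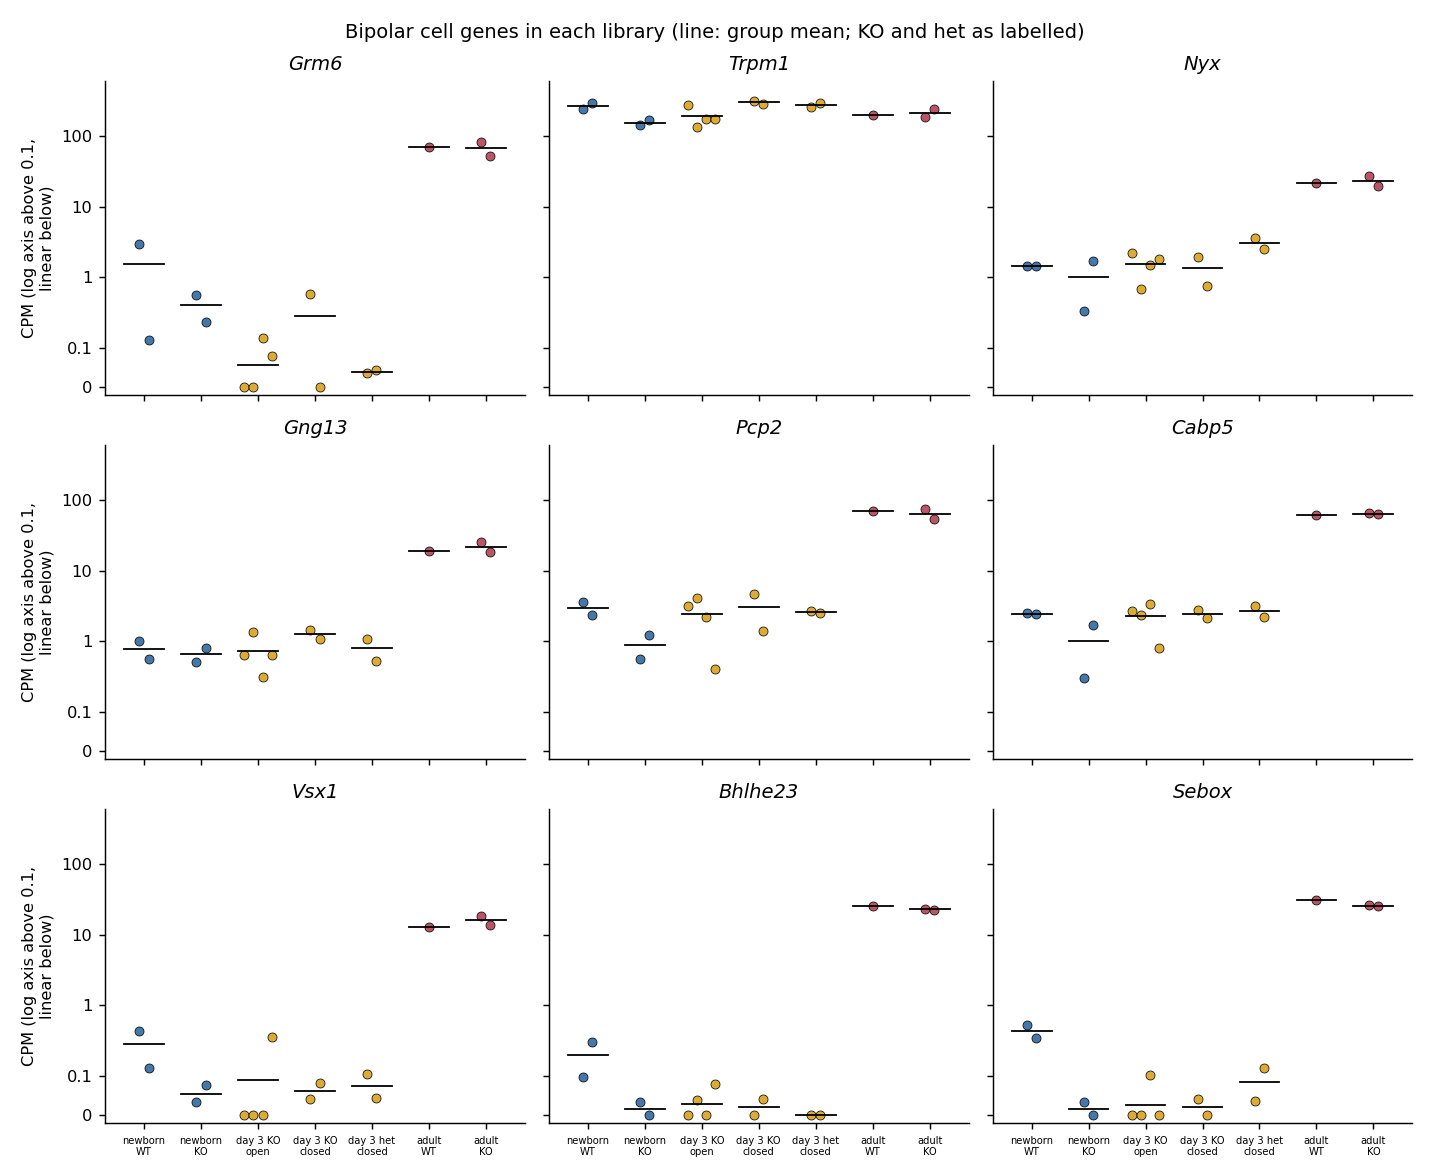
CPM of each member in each of the 15 libraries, on an axis that is logarithmic above 0.1 CPM and linear below; points are libraries, lines group means, and colours the 3 ages. For 8 members the 3 adult libraries lie above all newborn and day 3 libraries, while Trpm1 stays between 135.2 and 317 CPM at all ages. How many of all genes separate in this way was not counted.

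Adult eyes were compared with newborn eyes to ask which members change as the retina matures. In the labelled knockouts 8 of the 9 members rose from newborn to adult and Trpm1 did not pass the test (edgeR quasi-likelihood test, Benjamini-Hochberg adjusted p under 0.05). Vsx1, Bhlhe23 and Sebox did not pass the filter on low counts in newborn libraries alone and entered the test through the adult libraries in which they are high, so their calls are a description. Of the 6 members that passed it in newborn libraries alone, 5 rose. Over all 17592 genes tested 19.3% were called higher with age and 20.4% lower. The median log2 change of all 9 members, given as a description, was 6.17, beside -0.01 for all genes. In wild type, where 1 adult library stood against 2 newborn ones and its spread was taken from the other groups, the same 8 members were higher, against 18% of all genes higher and 14.6% lower, with a median of 4.60 beside -0.08. Both ages share the fit.

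Grm6, the receptor, was at 70.8 CPM in adult wild type and at 81.9 and 52.8 CPM in the adult labelled knockouts. In newborn eyes it was at 2.96 and 0.129 CPM in wild type, which is 61 and 3 reads, and at 0.566 and 0.230 CPM in the labelled knockouts. The 2 newborn wild type libraries thus differed more from each other than the genotypes did. Its log2 change with age was 7.36 ± 1.03 (SE; edgeR adjusted p = 0.00160) in the labelled knockouts and 5.54 ± 0.97 (adjusted p = 0.00523) in wild type. Nyx, which encodes the leucine-rich repeat protein nyctalopin, was at 21.8 CPM in adult wild type and at 26.8 and 19.6 CPM in the adult labelled knockouts. In newborn eyes it stood at 1.45 and 1.46 CPM in wild type and at 0.333 and 1.69 CPM in the labelled knockouts. Its rise was the smallest of the 8, at 4.54 ± 0.61 (adjusted p = 0.00132) in the labelled knockouts and 3.87 ± 0.64 (adjusted p = 0.00417) in wild type. The wild type call for Nyx was lost without either newborn wild type library, with edgeR adjusted p of 0.0556 and 0.0554.

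Gng13, a G protein gamma subunit of ON bipolar cells and taste cells, rose by 5.06 ± 0.38 (adjusted p = 0.000136) in the labelled knockouts and by 4.59 ± 0.40 (adjusted p = 0.000471) in wild type. It went from 0.499 to 1.02 CPM over the 4 newborn libraries to 18.2 to 25.4 CPM over the 3 adult ones. Its locus overlaps that of Chtf18 on the opposite strand in GENCODE M21, and the labels do not state that strand was used in counting. Chtf18 itself was at 11.1 to 17.1 CPM in adult and 19.2 to 29.3 CPM in newborn eyes, the opposite order. The Pcp2 locus likewise overlaps that of Pet100, a protein-coding gene on the opposite strand. Pet100 has no level here under that symbol, and its part in the Pcp2 count was not tested. Pcp2, a GoLoco-domain protein that binds Go and is shared by bipolar and Purkinje cells, went from 0.566 to 3.64 CPM in newborn to 54.5 to 73.9 CPM in adult eyes. The log2 change was 6.17 ± 0.41 (adjusted p = 9.15e-05) in the labelled knockouts and 4.55 ± 0.39 (adjusted p = 0.000444) in wild type. Cabp5, a calcium-binding protein of rod bipolar cells and some cone bipolar types, was at 60.6 CPM in adult wild type and at 66.2 and 62.7 CPM in adult labelled knockouts. It rose from 2.52 and 2.40 CPM in newborn wild type by 4.60 ± 0.59 (adjusted p = 0.00162), and from 0.300 and 1.69 CPM in newborn labelled knockouts by 6.05 ± 0.60 (adjusted p = 0.000380).

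The 3 transcription factor genes were close to absent in newborn eyes. Vsx1, a homeobox gene of cone bipolar cells, was at 12.9 CPM in adult wild type and at 18.3 and 13.6 CPM in adult labelled knockouts, against 9 and 3 reads in newborn wild type and 1 and 2 reads in newborn labelled knockouts. Bhlhe23, a basic helix-loop-helix gene needed for rod bipolar maturation, was at 25.2, 23.5 and 22.2 CPM in the 3 adult libraries, with 2 and 7 reads in newborn wild type and 1 and 0 reads in newborn labelled knockouts. Sebox, a homeobox gene named after skin, embryo, brain and oocyte, was at 31.0, 26.4 and 25.2 CPM in adult eyes, with 11 and 8 reads in newborn wild type and 1 and 0 reads in newborn labelled knockouts. All 3 carried an age call in both genotypes, which their entry through the adult libraries fixes in direction, and which is not used as support. Since the newborn labelled knockouts held 1 to 3 reads of each in all, the size of the change there is given as a ratio of reads per scaled total with its 95% exact counting interval: 299.6 (102.1 to 1456) for Vsx1, 1282 (229.5 to 50670) for Bhlhe23 and 1451 (259.9 to 57370) for Sebox. In wild type the ratios were 47.1 (26.5 to 92.2), 122.9 (64.3 to 270.2) and 71.6 (45.5 to 119.7). These intervals cover counting error only. Sebox lies 1122 bases downstream of Vtn on the same strand in GENCODE M21, and Vtn, the vitronectin gene, was at 339 to 463.4 CPM in adult eyes and at 5.05 to 8.89 CPM in newborn eyes. Whether reads from Vtn transcripts add to the adult Sebox count was not tested.

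**Figure D2:**
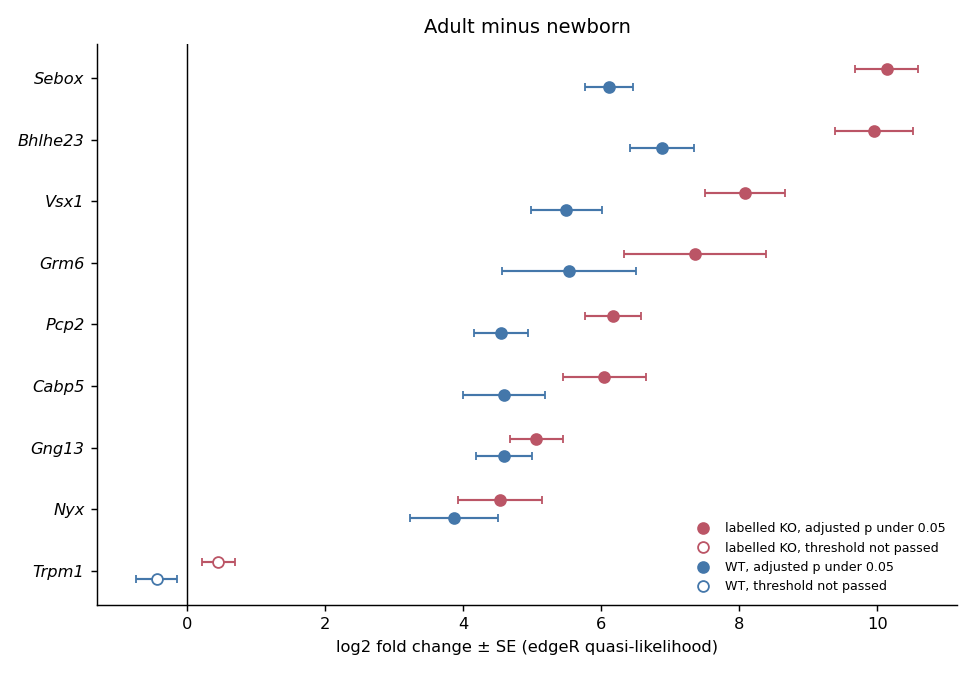
Log2 fold change from newborn to adult for each member, with SE, in the labelled knockouts and in wild type; filled points have an edgeR adjusted p under 0.05. The changes of 8 members run from 3.87 to 10.1, and the Trpm1 values are 0.46 and -0.43.

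Trpm1 was the exception. Its shorter transcript, the row with most reads and the one used above, was at 199.2 CPM in adult wild type and at 186.4 and 239.5 CPM in adult labelled knockouts. In newborn eyes it was at 237.4 and 290.4 CPM in wild type and at 140.9 and 169.3 CPM in the labelled knockouts, so that the adult libraries overlapped newborn wild type and lay above both newborn labelled knockouts. The log2 change with age was 0.46 ± 0.24 (edgeR adjusted p = 0.170) in the labelled knockouts and -0.43 ± 0.30 (adjusted p = 0.301) in wild type. Trpm1, also named melastatin, is made by melanocytes as well as by ON bipolar cells. Summed over 8 melanocyte genes, libraries stood at 1284 to 1607 CPM in adult, 1187 to 1580 CPM in newborn and 1101 to 2153 CPM in day 3 eyes, with every gene of the list detected in each library. The part of melanocytes in the Trpm1 level was not tested.

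The tables hold a second, longer Trpm1 transcript. In GENCODE M21 it has 27 exons and starts 31624 bases upstream of the shorter one, which has 14 exons, and 1788 exon bases, 61.1% of the shorter transcript, belong to both. How reads in shared exons were assigned is not given in the sources used here, so the ratio between the transcripts is read only as a comparison between libraries. The longer transcript was at 274.7 CPM in adult wild type and at 320.7 and 289.4 CPM in adult labelled knockouts, against 183.5 and 217.0 CPM in newborn wild type and 103.6 and 127.5 CPM in newborn labelled knockouts. All 3 adult libraries thus lay above all 4 newborn ones. Reads of the longer over the shorter transcript stood at 1.38, 1.72 and 1.21 in the 3 adult libraries, at 0.735 to 0.773 in newborn and at 0.707 to 0.779 in day 3 eyes, with no overlap between the adult and the younger libraries. Counted by the longer transcript, an alternative chosen after seeing the data, Trpm1 rose with age in the labelled knockouts by 1.40 (edgeR adjusted p = 0.00275), and with the reads of both transcripts summed by 0.94 (adjusted p = 0.0180). In wild type the longer transcript gave 0.43 (adjusted p = 0.251).

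**Figure D3:**
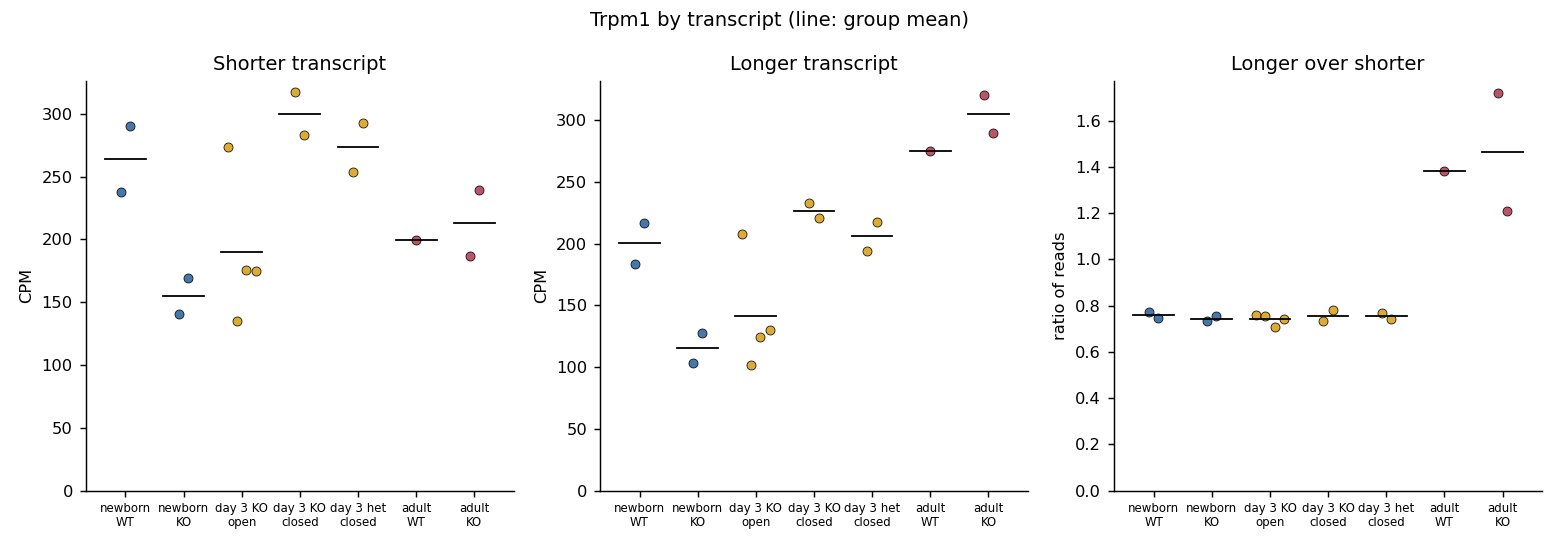
Levels of the shorter and of the longer Trpm1 transcript in CPM, and the ratio of their reads, in each library; points are libraries and lines group means. The ratio is 1.21 to 1.72 in the 3 adult libraries and 0.707 to 0.779 in the younger ones.

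Further genes listed for bipolar cells and their synapse moved with age as well. In whole eyes the cell types behind their rise were not told apart. Of 10 genes that act in or around the mGluR6 cascade, 9 were in the tables, and 9 rose in the labelled knockouts and 8 in wild type. They are not particular to ON bipolar cells, and Gnb3 among them is also on the cone list. Rgs9bp, an anchor of RGS proteins, rose by 6.45 ± 0.33 in the labelled knockouts, Rgs7, which speeds GTP hydrolysis by Go, by 3.37 ± 0.27, its partner Gnb5 by 3.32 ± 0.22, and Prkca, the protein kinase used as a rod bipolar marker, by 2.52 ± 0.23. Of 11 other genes used as bipolar type markers, 10 rose in each genotype, among them Lrtm1 by 4.71 ± 0.29, Car10 by 4.16 ± 0.22 and Car8 by 3.23 ± 0.18 in the labelled knockouts. Slc17a7, the vesicular glutamate transporter VGLUT1 of both photoreceptors and bipolar cells, rose by 6.64 ± 0.45. On the photoreceptor side of that synapse, 9 of 10 genes rose and 1, Dag1, fell in the labelled knockouts, and 5 rose and none fell in wild type, where the median was 1.01. In the labelled knockouts this included Cabp4, a regulator of the release channel, at 7.63 ± 0.47 and Cacna1f, its pore subunit, at 6.33 ± 0.27. The median log2 changes in the labelled knockouts were 3.32 for the cascade list, 4.16 for the other bipolar markers and 2.19 for the synapse list, beside -0.01 for all genes. The background for these counts is 19.3% of all genes called higher in the labelled knockouts and 18% in wild type.

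Transcription factors that act earlier in bipolar cell formation did not share one direction with age. Of 10 such genes, 4 rose and 2 fell in the labelled knockouts, and none rose and 3 fell in wild type. Over all genes 19.3% rose and 20.4% fell in the labelled knockouts, and 18% rose and 14.6% fell in wild type. The number that fell is therefore not read as a result about this list. Irx5, an Iroquois homeobox gene, fell by 1.68 on the log2 scale in the labelled knockouts and fell by 1.94 in wild type. Isl1, a LIM-homeobox gene needed for ON bipolar cells and used by ganglion and amacrine cells too, rose by 2.53 ± 0.23 in the labelled knockouts. Over the list the median log2 change was 0.68 in the labelled knockouts and -1.27 in wild type.

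At day 3 the members were still near their newborn levels. The day 3 labelled-knockout mice, 3 with the reads of both eyes summed, were compared with the 2 newborn and the 2 adult labelled knockouts in 1 fit of 11 units. None of the 9 members passed the test against newborn, where 11.1% of 17980 genes were called higher and 6.7% lower. At an unadjusted p under 0.05 the members were Cabp5 and Pcp2, and DESeq2 called those 2, where it called 27.4% of all genes. Against day 3, adult labelled knockouts were higher for 8 members, all but Trpm1, while 24.4% of all genes were called higher and 25.7% lower. Vsx1, Bhlhe23 and Sebox did not pass the filter on low counts in day 3 mice alone. They entered this fit through the adult libraries in which they are high, so their calls are a description. Of the 6 members that passed it there, all but Trpm1 rose. Grm6 is among the 6 with only 20 reads over the 6 labelled-knockout eyes, 14 of them in 1 eye. It did not pass the filter over the 8 day 3 eyes.

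Pcp2 over the 8 day 3 eyes had its lowest value at 0.399 CPM, its median at 2.57 and its highest at 4.72, and for Cabp5 these were 0.798, 2.54 and 3.38 CPM. Nyx ran from 0.679 to 3.56 CPM with a median of 1.85, and Gng13 from 0.313 to 1.43 with a median of 0.858. All of these overlapped the newborn libraries and lay far below the adult ones. Pcp2 was 1.60 ± 0.52 higher on the log2 scale at day 3 than in newborn labelled knockouts (edgeR adjusted p = 0.0658) and Cabp5 1.30 ± 0.53 higher (adjusted p = 0.114). Without E32, the mouse with the eye that stands apart, Pcp2 was 1.77 higher (adjusted p = 0.0127). The remaining log2 changes to the adult were 4.57 ± 0.47 for Pcp2 (adjusted p = 0.000200), 4.74 ± 0.49 for Cabp5 (adjusted p = 0.000195), 3.97 ± 0.62 for Nyx (adjusted p = 0.00122) and 4.58 ± 0.47 for Gng13 (adjusted p = 0.000191).

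Grm6 had 22 reads in all over the 8 day 3 eyes, 14 of them in the closed OS eye of E24, and 3 eyes had 0. The median was 0.0393 CPM, below the value of 3 reads, while the 4 newborn libraries held 3 to 61 reads. The fitted change from newborn to day 3 was -1.62 ± 1.32 (edgeR adjusted p = 0.395), and that from day 3 to adult was 8.99 ± 1.16 (adjusted p = 0.000530). Vsx1 had 16 reads over the 8 eyes, Sebox 8 and Bhlhe23 4. Adult over day 3 labelled knockouts gave ratios of 207.8 (95% counting interval 118.2 to 404) for Vsx1, 888.9 (346.1 to 3269) for Bhlhe23 and 1006 (392 to 3700) for Sebox. No ratio between day 3 and newborn is given for Bhlhe23 and Sebox, which had at most 3 reads in any day 3 eye and at most 1 in either newborn labelled knockout. Trpm1 ranged from 135.2 to 317 CPM over the day 3 eyes, with a median of 263.7, a span that takes in all 3 adult libraries (log2 change from day 3 to adult -0.09 ± 0.26, adjusted p = 0.786). By its longer transcript it was 0.85 higher in adults (adjusted p = 0.0212).

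Of the 10 earlier transcription factors, 5 were called higher at day 3 than in newborn labelled knockouts and none lower, among them Prdm8 at 2.27 ± 0.52. Some other retinal lists had similar or larger shares called higher: 8 of 10 ganglion cell genes, 6 of 12 amacrine and horizontal cell genes, 5 of 9 progenitor genes and 5 of 10 genes of the photoreceptor synapse. Others had smaller shares: 2 of 11 other bipolar markers, 1 of 10 cone, 1 of 7 Muller glia, 0 of 13 rod and 0 of 5 pigment epithelium genes. The background for these shares is 11.1% of all genes called higher. Without newborn labelled knockout replicate 1, edgeR called no gene for day 3 against newborn (3843 had an unadjusted p under 0.05), so that all these calls were lost. It called 580 genes without newborn labelled knockout replicate 2, 855 without E29 and 6149 without E32. From day 3 to adult 4 of the 10 earlier transcription factors fell and none rose, where 25.7% of all genes were called lower and 24.4% higher. The cascade list had 2 of 9 genes higher at day 3 (Gnao1, the alpha subunit of Go, at 1.74 ± 0.28 and Gnb5 at 1.04 ± 0.22) and 7 of 9 higher in adults than at day 3.

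Within the 8 day 3 eyes, the eyelid comparison asked whether eyes with open lids differ from eyes with closed lids. It was fitted with mouse as a term, so it rests on E24 and E29, which had 1 eye of each kind. Only 5 of the 9 members passed the filter on low counts there, none of them passed the test with edgeR or DESeq2, and 0.548% of 15159 genes did with edgeR. Trpm1 had the largest difference among them in units of its error. It was at 273.7 CPM in the open and 317 CPM in the closed eye of E24, and at 135.2 and 283.3 CPM in those of E29, lower in the open eye of both mice, with a log2 difference of -0.63 ± 0.22 (edgeR unadjusted p = 0.0244, adjusted p = 0.598). The 8 melanocyte genes summed to 1986 and 2153 CPM in the open and closed eyes of E24 and to 1230 and 1951 CPM in those of E29, the same order, and their part in the Trpm1 difference was not tested. The other 4 members differed by -0.39 to 0.45, with SEs of 0.50 to 0.85.

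For the day 3 genotype comparison, 3 labelled-knockout mice stood against the 1 Egr1+/- mouse, whose spread was taken from the others. Of the 9 members 6 passed the filter, and none passed the test, with edgeR or DESeq2 or at an unadjusted edgeR p under 0.05. No gene of 16453 passed it with edgeR (0%), 273 had an unadjusted p under 0.05, and DESeq2 called 93. Nyx, which did not pass the test, was at 3.56 and 2.49 CPM in the eyes of E28. It was at 0.679 to 2.21 CPM in the 6 eyes of the 3 labelled-knockout mice, with a log2 difference of -1.03 ± 0.76. Eyes of 1 mouse are not independent, so no separation between the genotypes is read from these values. Cabp5 was at 3.18 and 2.23 CPM in the eyes of E28 and at 0.798 to 3.38 CPM in the others.

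**Figure D4:**
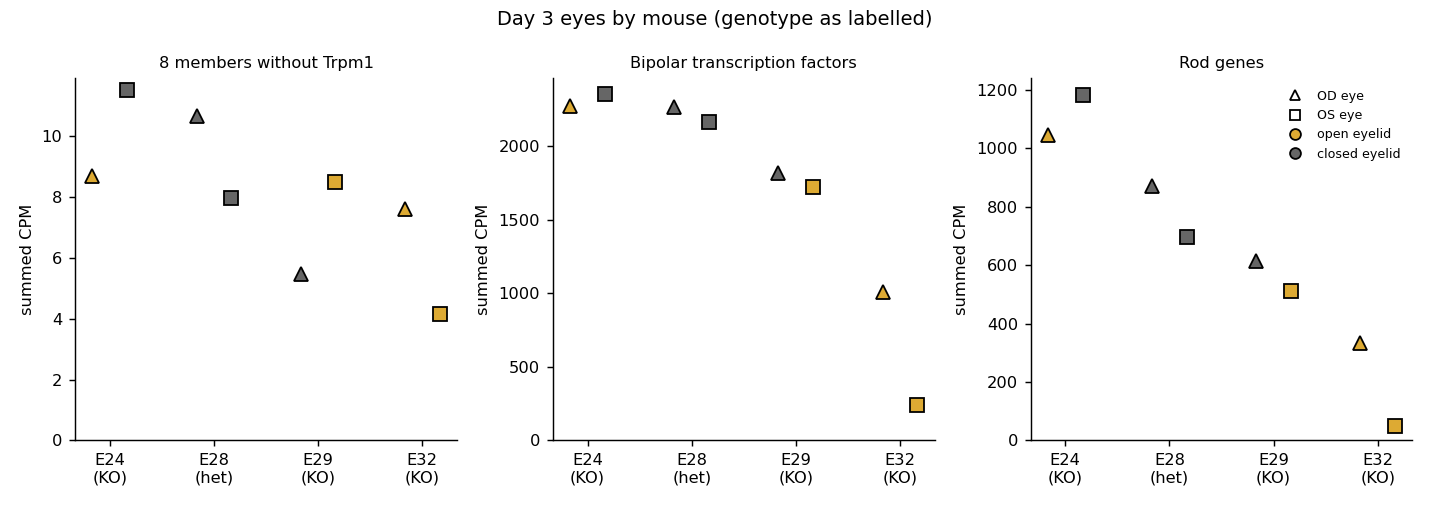
Summed CPM of the 8 members without Trpm1, of 10 earlier bipolar transcription factors and of 13 rod genes in the 8 day 3 eyes, by mouse; triangles are right eyes (OD), squares left eyes (OS), yellow open and grey closed lids. The OS eye of E32 is lowest in these 3 sums, at 4.15, 240.7 and 50.3 CPM, and not in every list.

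The eyes of a mouse were alike in the earlier transcription factors except in E32. Summed over the 10 genes, the OD and OS eyes stood at 2274 and 2356 CPM in E24, at 1817 and 1726 CPM in E29, at 2265 and 2165 CPM in E28, and at 1006 and 240.7 CPM in E32. Summed over the 8 members without Trpm1, the OS eye of E32 was also lowest, at 4.15 CPM, against 5.47 to 11.5 CPM in the other 7 eyes. Its Pcp2 (0.399 CPM) and Cabp5 (0.798 CPM) were the lowest of the 8 eyes, while Vsx1, with 9 reads, was the highest. The sum over the 11 other bipolar markers went the other way, with that eye highest at 238.2 CPM against 65.0 to 123.7 CPM in the other 7. How many of the 11 genes share that order was not counted.

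In newborn eyes the labelled knockouts were compared with wild type, the question being whether the Egr1 genotype goes with the early state of these genes. All 9 members had lower fitted levels in the labelled knockouts, and 3 passed the test, Pcp2, Bhlhe23 and Sebox (0 to 4 when 1 library was left out), while 9.38% of 17592 genes were called lower and 14.6% higher. The median log2 difference was -1.74, beside -0.07 for all genes. Only 6 of the 9 members passed the filter in newborn libraries alone. Vsx1, Bhlhe23 and Sebox were tested only because adult eyes express them.

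Pcp2 stood at 3.64 and 2.36 CPM in newborn wild type, which is 75 and 55 reads, and at 0.566 and 1.23 CPM in the labelled knockouts, 17 and 32 reads. The groups did not overlap, and the log2 difference was -1.74 ± 0.39 (edgeR adjusted p = 0.0198). Sebox had 11 and 8 reads in wild type and 1 and 0 in the labelled knockouts, a ratio of 24.2 with a 95% counting interval of 3.85 to 1007 (edgeR adjusted p = 0.00605). Vtn, its upstream neighbour, was at 5.05 and 5.09 CPM in wild type and at 7.06 and 8.89 CPM in the labelled knockouts, so it did not share that order. Bhlhe23 had 2 and 7 reads in wild type and 1 and 0 in the labelled knockouts, a ratio of 11.5 with an interval of 1.59 to 503.4 (edgeR adjusted p = 0.0461). Single libraries decided these calls. Without newborn wild type replicate 1 none of the 9 members passed, with edgeR adjusted p of 0.148 for Pcp2, 0.0715 for Bhlhe23 and 0.0639 for Sebox. Without labelled knockout replicate 1, the library nearly without lens genes, Sebox alone passed (adjusted p = 0.0145), with Pcp2 at -1.27 (adjusted p = 0.0799). Sebox alone passed without wild type replicate 2 as well (adjusted p = 0.0495). Fitted on the 4 newborn libraries only, Pcp2 fell short (edgeR adjusted p = 0.0537).

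The remaining members did not pass. Trpm1 did not overlap between the genotypes, as above, and differed by -0.76 ± 0.24 (edgeR adjusted p = 0.0582), a value that crossed the threshold in 7 of 16 alternative settings. Vsx1, with 12 reads in wild type and 3 in the labelled knockouts, gave a ratio of 5.10 (interval 1.38 to 28.2; adjusted p = 0.0771). Cabp5 differed by -1.33 ± 0.59 (adjusted p = 0.148), with labelled knockout replicate 1 at 9 reads and replicate 2 at 44 against 52 and 56 in wild type. Grm6 (-1.86 ± 1.08, adjusted p = 0.255), Nyx (-0.54 ± 0.62, adjusted p = 0.550) and Gng13 (-0.26 ± 0.41, adjusted p = 0.676) overlapped between the genotypes. The sign for Grm6 turned to 1.64 without newborn wild type replicate 1, that for Nyx to 0.22 without labelled knockout replicate 1, and that for Gng13 to 0.24 without the former library and to 0.06 without the latter. The sum of the 8 members without Trpm1 was 12.7 and 7.67 CPM in wild type and 2.36 and 5.71 CPM in the labelled knockouts.

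**Figure D5:**
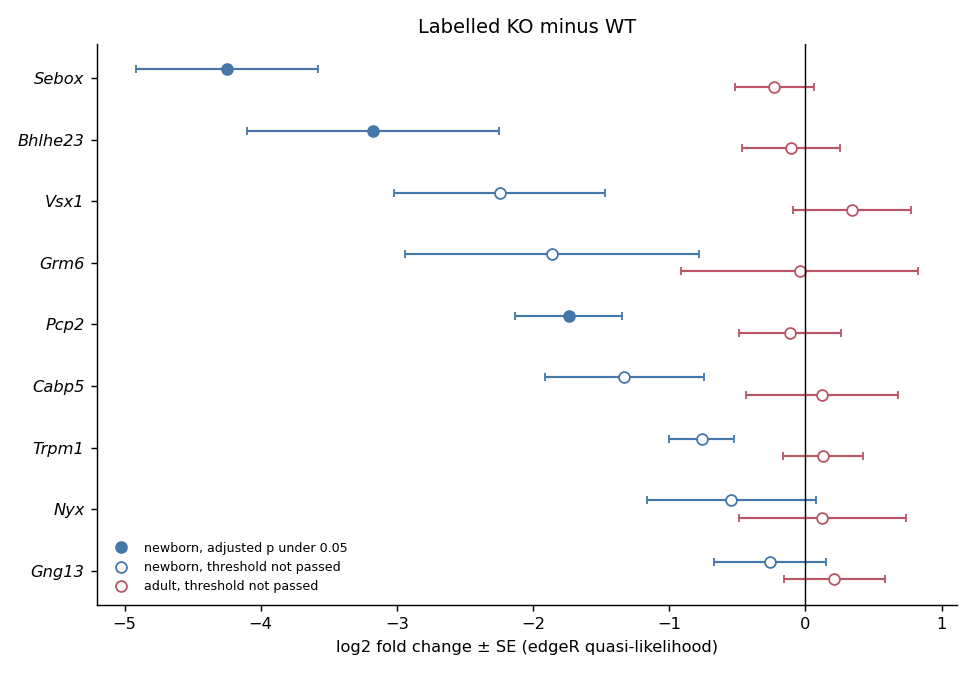
Log2 difference between labelled knockout and wild type for each member, with SE, in newborn and in adult eyes; filled points have an edgeR adjusted p under 0.05. Newborn values run from -4.25 to -0.26 with 3 filled points, and adult values lie between -0.23 and 0.34.

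Other retinal genes were lower in the same newborn libraries. Of the earlier bipolar transcription factors 9 of 10 were called lower, with a median of -1.94, including Isl1 at -1.87 ± 0.23, Prdm8 at -1.90 ± 0.25 and Irx6 at -1.73 ± 0.26. The cascade list had 3 of 9 called lower (Rgs7 at -2.04 ± 0.27, Gnao1 at -1.18 ± 0.22 and Gnb5 at -0.67 ± 0.20), the other bipolar markers 4 of 11 and the synapse list 7 of 10, with Dag1 of that list higher. The background is the 9.38% of all genes called lower. All 13 rod genes were called lower, and their sum was 1043 and 1218 CPM in wild type and 81.5 and 244.5 CPM in the labelled knockouts. Cone genes summed to 269.0 and 285.9 CPM against 33.8 and 74.4 CPM, and 12 amacrine and horizontal cell genes to 338.4 and 395.8 CPM against 87.6 and 195.7 CPM. Keratinocyte genes went the other way, at 543.9 and 1280 CPM in wild type and 7679 and 6683 CPM in the labelled knockouts, with 4 of 7 called higher. Without newborn wild type replicate 1 edgeR called no gene at all (4735 had an unadjusted p under 0.05), so that every call on these lists was lost, and it called 2089 genes when labelled knockout replicate 1 was left out and 728 without wild type replicate 2. None of the 13 rod and 7 keratinocyte genes was at 0 reads in any newborn library. How far these other tissues and cell types account for the lower bipolar genes was not tested.

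In adult eyes, with 2 labelled knockouts against 1 wild type library, the members differed by -0.23 to 0.34 on the log2 scale, each by less than its SE, and none had an unadjusted p under 0.05. No gene at all was called with edgeR (0%), while 506 had an unadjusted p under 0.05 and DESeq2 called 107. Vsx1 had the largest difference, with 12.9 CPM in wild type and 18.3 and 13.6 CPM in the labelled knockouts (0.34 ± 0.43). Sebox was at 31.0 CPM in wild type and at 26.4 and 25.2 CPM in the labelled knockouts (-0.23 ± 0.29). The precision is that of 1 wild type library, and for Grm6 the SE was 0.87.

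The difference between the 2 genotype effects was tested as an interaction. All 9 members had a positive value, though Grm6 and Gng13 turned negative without newborn wild type replicate 1 (-1.69 and -0.04) and Nyx without newborn labelled knockout replicate 1 (-0.10). Sebox was the one called, at 4.02 ± 0.76 (edgeR adjusted p = 0.0448), where 0.995% of genes were called positive and 1.8% negative. That call was lost without either newborn wild type library or without newborn labelled knockout replicate 1, at adjusted p of 0.205, 0.167 and 0.0734. Since the newborn labelled knockouts held 1 Sebox read between them, its size is not well determined. In the other lists Isl1 (2.07 ± 0.36, adjusted p = 0.0426), Bhlhe22 (1.46 ± 0.26, adjusted p = 0.0432) and Car10 (1.76 ± 0.32, adjusted p = 0.0436) were called, and these 3 calls were lost without the same libraries. Without newborn wild type replicate 1 or 2 edgeR called no gene for the interaction (2600 and 3377 had an unadjusted p under 0.05), and without labelled knockout replicate 1 it called 109. DESeq2 called Sebox and Pcp2, beside 12.1% of all genes.

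Over the 15 libraries 8 members shared the step between younger and adult eyes, and Trpm1 did not. The correlation of each with the mean standardised profile of the 9 was 0.955 to 0.981 for 8 members and 0.112 for Trpm1, on log2(CPM + 0.5) values that share library and depth. Each member is part of that mean, which the 8 dominate, so their high values are built in and are not used as support. Ranked by the same measure over all other genes, the 8 most similar were Wdr17 (r = 0.991), Gnat1, Abca4, Cplx4, Rgs9bp, Pde6a, Rtbdn and Gpr152, all at 0.988 or above. These values lie above those of every member. Gnat1 and Pde6a encode transducin and phosphodiesterase subunits of rods, Abca4 a retinoid transporter of photoreceptor discs and Cplx4 a complexin of photoreceptor ribbon synapses. Gnat1 reached 6222 to 11730 CPM in adult eyes from at most 7.58 CPM in any younger library, and Wdr17 64.0 to 102.8 CPM from at most 3.73 CPM. These correlations are a description over 15 libraries that fall into adult and younger ones.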

How the data were processed

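Poly(A)+ RNA from mouse eyes was sequenced on an Illumina HiSeq, per the labels' protocols. Those protocols describe both fixation in glutaraldehyde and formalin and storage in RNAlater, and which was used for the sequenced eyes is not given in the sources used here. The submitters' processing notes name the mouse build mm8 and the tools TopHat2 2.0.11, Bowtie 0.12.9, CASAVA 1.8 and SAMtools. The annotation release and the counting tool are not given in the sources used here. The authors deposited, for each library, a whole-number read count and an RPKM value for each of 24373 RefSeq transcripts. Per the deposited files, 2673 of the 20418 symbols had several transcripts, and the one with the highest mean count was used. The 2 transcripts of a gene may share reads, and reads amplified by PCR without molecular identifiers are not independent molecules.

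From the counts, edgeR 4.0.16 (R 4.3.3) was run with TMM scaling, filterByExpr and the quasi-likelihood test, with p-values adjusted by Benjamini-Hochberg over all genes tested and a threshold of 0.05. Newborn and adult libraries (7) shared 1 fit, day 3 mice with summed eyes were added for the comparisons with day 3 (11 units), and the eyelid comparison used the 8 eyes with mouse as a term. The SE of a log2 change is its size over the square root of F. The test was also run on counts simulated with the same spread for every gene and without the differences in tissue make-up between libraries. The interaction was not simulated, and no result here rests on that run. CPM values use TMM totals over the 15 libraries. The RPKM values deposited by the authors were used to order genes by level and to derive the authors' library totals. Start-site windows come from RefSeq on GRCm38.p6 (all 9 genes matched), and exons and neighbours from GENCODE M21 on GRCm38. No coordinate was converted from mm8. The 9 members, the other gene lists and the rules were chosen with earlier results of these data known: all members were named, and up to 4 genes per other list and comparison with the smallest p among those called, with some genes not reported here. Of the lists, Lrit3, Tfap2a, Tfap2b and Krt3 have no row under their symbols in the tables. Alternatives were median-of-ratios size factors, no filter, DESeq2 1.42.0, summed transcripts, scaling without lens genes, each library left out, the authors' library totals and Trpm1 by its longer transcript, the last 2 chosen after seeing the data.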

Additional observations from a re-analysis of the deposited data

Results flagged for a closer look

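In the 4 open eyes of the day 3 labelled knockouts, 2 of the 10 sets of values tested had 1 eye far from the other 3. Vsx1 was at 0.359 CPM in the OS eye of E32, which is 9 reads, and at 0 in the other 3 eyes. Sebox was at 0.104 CPM in the OD eye of E32, which is 3 reads, and at 0 in the other 3. Those 4 eyes include both eyes of E32, so they are not 4 independent samples. With 3 eyes at 0 any read stands out, and nothing is read from the number of such sets.

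The genotype effect differed between adult and newborn eyes, by the interaction test, for Sebox among the members (4.02 on the log2 scale) and for 3 genes of the other lists. Isl1 differed by 2.07, with 19.1 and 16.9 CPM in newborn wild type, 4.73 and 5.02 CPM in newborn labelled knockouts, 25.2 CPM in adult wild type and 33.9 and 22.6 CPM in adult labelled knockouts. Bhlhe22, a repressor gene of cone bipolar and amacrine cells, differed by 1.46, with 54.6 and 63.8 CPM in newborn wild type, 28.1 and 29.6 CPM in newborn labelled knockouts, 20.9 CPM in adult wild type and 27.6 and 27.2 CPM in adult labelled knockouts. Car10, a carbonic anhydrase-related gene, differed by 1.76, with 7.32 and 7.92 CPM in newborn wild type, 1.90 and 2.38 CPM in newborn labelled knockouts, 41.0 CPM in adult wild type and 42.5 and 33.8 CPM in adult labelled knockouts. Each adult wild type value is a single library. These 4 calls were lost without either newborn wild type library, where edgeR called no gene for the interaction, and without newborn labelled knockout replicate 1.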

How the results depend on the processing

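The rise of 8 members with age kept its direction and its call in all alternatives tried in the labelled knockouts (8 or 9 members called) and against day 3 (8 or 9 called). For Vsx1, Bhlhe23 and Sebox, which entered the main fits through the adult libraries, this is a description. In wild type 7 or 8 were called when 1 library was left out. Leaving out 1 library or mouse at a time gave 0 to 5116 genes called (0 to 4 members) for the newborn genotype, 0 to 205 genes for the adult genotype, 0 to 1613 genes (0 to 3 members) for the interaction, 5003 to 7351 for age in the labelled knockouts, 3460 to 6424 for age in wild type, 0 to 6149 genes (0 to 1 member) for day 3 against newborn, 6241 to 9750 for adult against day 3, 0 to 165 for the eyelid and 0 to 6 for the day 3 genotype. DESeq2 called 107 genes for the adult genotype, 2131 genes and 2 members for the interaction, 4924 genes and 2 members for day 3 against newborn, 352 genes for the eyelid and 93 for the day 3 genotype. The adult genotype count was 13 without a filter and 33 with the authors' library totals. Closed eyes alone gave 6938 genes and 1 member for day 3 against newborn, the 4 newborn libraries alone 1 member for the newborn genotype (Trpm1, while Pcp2 lost its call), the 4 eyes of E24 and E29 alone 210 genes and the 6 labelled-knockout eyes without a mouse term 29 genes for the eyelid. The causes of these differences were not tested.

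Signs that turned belonged to values that had not passed the test. For Trpm1 they were 0.0068 with transcripts summed and 0.43 by its longer transcript (age in wild type), and 0.38, 0.85 and, with the authors' totals, 0.17 (adult against day 3). For Grm6 in the adult genotype it was 0.0617 with the authors' totals, and without a mouse term the eyelid values were -0.0329 for Cabp5 and -0.29 for Pcp2. With 1 library or mouse left out, log2 values that changed sign ran as follows. For the newborn genotype they ran from -2.81 to 1.64 for Grm6, -2.08 to 0.22 for Nyx and -0.61 to 0.24 for Gng13. For the adult genotype they ran from -0.39 to 0.24 for Grm6, -0.0635 to 0.30 for Trpm1, -0.34 to 0.0893 for Pcp2, -0.11 to 0.33 for Nyx and -0.0427 to 0.43 for Gng13. The interaction ran from -1.69 to 2.76 for Grm6, -0.0984 to 2.20 for Nyx and -0.0385 to 0.81 for Gng13. Day 3 against newborn ran from -0.92 to 0.98 for Vsx1 and -0.19 to 1.98 for Nyx, and adult against day 3 from -0.28 to 0.16 for Trpm1. The eyelid difference ran from -0.0514 to 0.19 for Cabp5, -0.58 to 1.53 for Pcp2, -0.12 to 0.23 for Nyx and -1.15 to 0.35 for Gng13, and the day 3 genotype from -0.28 to 0.39 for Pcp2 and -0.14 to 0.44 for Gng13.

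Same-numbered replicates share only a number: deviations correlated at 0.106 between newborn genotypes and 0.115 between newborn and adult labelled knockouts. With the replicate number as a block, 3768 genes and 3 members were called for the newborn genotype and 6668 genes and 8 members for age in the labelled knockouts. The block brought Trpm1 past the threshold in newborn eyes (adjusted p = 0.0355) and left Bhlhe23 short of it (adjusted p = 0.0760).

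Depth limits the newborn and day 3 values of Vsx1, Bhlhe23, Sebox and, at day 3, Grm6, which lay near or under the level of 3 reads.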
